A study of Mus musculus with 8 samples.

Results

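Hearts of mice homozygous for a CRISPR/Cas9 deletion of a conserved enhancer of Actn2 were compared with hearts of mice heterozygous for it, which shows what the loss of the second copy adds to the loss of the first. The comparison used the 3 homozygous and the 3 heterozygous libraries, 6 of the 8 in the series, and every gene that passed a filter on low counts in these 6, which was 14487 of 24516 genes (59.1%). The 2 wild-type libraries were set aside, except where their levels are given as a description. Bulk RNA sequencing measured heart tissue (tissue label: heart) at postnatal day 40, and per the labels the hearts came from 1 litter. Both groups carry the deletion, so neither is an undeleted control. The deletion was made in the germ line and so is present in every cell type of the heart. The strain, the sex and the position of the deleted enhancer were not given in the sources used here.

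Actn2 encodes alpha-actinin 2, the actin crosslinker of the cardiac Z-disc, the structure that anchors the thin filaments of neighbouring sarcomeres. An enhancer is a stretch of DNA outside the promoter that raises transcription of a gene on the same chromosome. A heterozygote keeps an intact copy, and a homozygote keeps none, so that any remaining transcription in the homozygote comes from the promoter and other enhancers.

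Gene by gene, the homozygous and the heterozygous hearts could hardly be told apart. No gene passed edgeR's quasi-likelihood test at a Benjamini-Hochberg adjusted p under 0.05 (0 of 14487, or 0%). At an unadjusted p under 0.05 there were 741 genes (5.11%), of which 384 (2.65%) were higher in value in the homozygous hearts and 357 (2.46%) were lower. A uniform spread of p-values would put 724 genes there. DESeq2 called 7 genes and limma-voom called 0. Actn2 itself did not pass. The smallest adjusted p, 0.0824, was shared by Irs2, an adaptor of the insulin receptor that was lower in value in the homozygous hearts, and Cyr61, a secreted matrix-associated protein that was higher in value. The next smallest was 0.926.

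The intervals of the fit were narrow enough to limit the size of most differences. The 95% interval of the fold change lay within 2-fold in either direction for 11485 genes (79.3%). Among the 9209 genes with a mean of at least 10 CPM (counts scaled to a library of 1e6), it did so for 8967 (97.4%). The median standard error (SE) of the log2 fold change was 0.15 over all genes and 0.12 in that upper class. Of the 1438 genes with a mean under 1 CPM, 3 (0.209%) were bounded in this way, so for nearly all genes of low level a difference of 2-fold was not excluded. Over all genes the median log2 fold change was -0.00 with quartiles of -0.13 and 0.12. A log2 fold change beyond 1 in size was estimated for 255 genes (1.76%), of which 177 had a mean under 1 CPM.

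**Figure D1:**
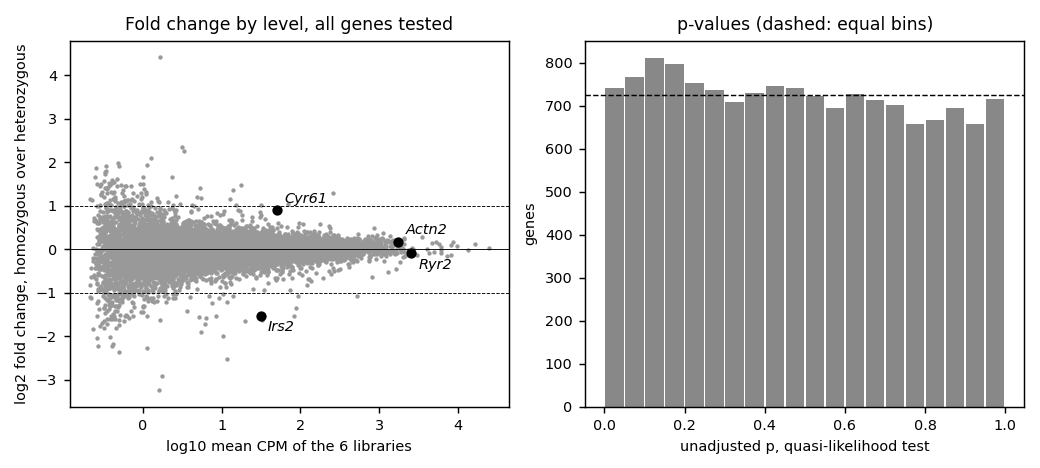
Left, the log2 fold change (homozygous over heterozygous, vertical axis) of each of the 14487 genes tested against its mean level in log10 CPM (horizontal axis), with dashed lines at a 2-fold difference; the cloud narrows around 0 as the level rises, with Irs2 at -1.54 and Cyr61 at 0.90 outside its main body. Right, the number of genes in each bin of the unadjusted p of edgeR's quasi-likelihood test, 657 to 811 genes a bin against the 724 of equal bins (dashed line).

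Library totals were 22230090 to 31247412 counts in the heterozygous hearts and 33197075 to 55902737 in the homozygous hearts, so that depth and genotype cannot be told apart. After every library was thinned to the smallest total, 1 gene, Irs2, passed. Pearson's r of log2 CPM was 0.970 to 0.982 between heterozygous libraries, 0.978 to 0.982 between homozygous libraries and 0.972 to 0.983 across the groups. By this r, hearts of different genotype were as alike as hearts of the same one. Xist, the RNA that silences 1 X chromosome in females, was at 925 to 1226 CPM in heterozygous 2, heterozygous 3 and homozygous 2, and at 3.80 to 6.26 CPM in the other 3 libraries. Ddx3y, a gene of the Y chromosome, was at 1.31 to 1.94 CPM in the libraries high in Xist and at 171 to 254 CPM in the others. With heterozygous 2 and 3 but only homozygous 2 high in Xist, the groups were not balanced in it. The 8 genes listed as sex-linked held 0 members with an unadjusted p under 0.05. Each group held both kinds of library, which widens the spread (SE 2.78 for the log2 fold change of Xist). That count therefore cannot show that the groups match. The first principal component, 35% of the variance of the 1000 most variable genes, placed heterozygous 1 at -31.9 and homozygous 1 at -15, the other libraries lying between -4.97 and 20.9. The second component, 19.6% of that variance, placed heterozygous 1 to 3 at -17, -15.1 and -2.37. It placed homozygous 1 to 3 at 10.3, -0.109 and 24.4, so the groups did not overlap on it. This separation was not tested.

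On mm10, Actn2 lies on the minus strand of chromosome 13 from 12269426 to 12340760 (ENSMUSG00000052374.16). Its level was 1704, 1550 and 1646 CPM in heterozygous 1 to 3 and at 2123, 1614 and 1794 CPM in homozygous 1 to 3. The groups overlapped, with homozygous 2 below heterozygous 1 and 3, and homozygous 1 the highest of the 6. The means were 1634 ± 78.2 CPM (SD, n = 3) in heterozygous and 1844 ± 258 CPM (SD, n = 3) in homozygous hearts. The log2 fold change was 0.17 (SE 0.12, 95% interval -0.09 to 0.43), with an adjusted p of 0.926 by edgeR's quasi-likelihood test. On the linear scale the interval ran from 0.943-fold to 1.35-fold, so a homozygous level below 0.943 of the heterozygous level lay outside it. The authors' counts hold Actn2 as 1 gene, so a shift between transcripts of the gene could not be seen.

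The other alpha-actinins crosslink actin outside the cardiac Z-disc or, in the case of Actn3, in fast skeletal muscle fibres. Actn1 was at 40.6, 41.6 and 39.6 CPM in the heterozygous hearts and at 38.7, 39.7 and 38.0 CPM in the homozygous hearts. Homozygous 2 lay just above the lowest heterozygous value, so the groups overlapped, and the log2 fold change was -0.07 (95% interval -0.27 to 0.14). Actn4 had a log2 fold change of 0.05 (95% interval -0.18 to 0.29). Actn3, with 34 counts over the 6 libraries, was not tested.

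The genes around Actn2 on chromosome 13 share its neighbourhood and were listed to see whether the second deletion reached them. Of the 11 that the table holds, 10 were tested, 0 had an unadjusted p under 0.05, and the interval lay within 2-fold for 9. Their median log2 fold change was -0.02, against -0.00 over all genes. Ryr2, the channel that releases calcium from the sarcoplasmic reticulum, was at 2723, 2584 and 2540 CPM in heterozygous and 2808, 2456 and 2168 CPM in homozygous hearts. The groups overlapped, and the log2 fold change was -0.08 (95% interval -0.33 to 0.17). The member with the widest interval was Chrm3, a muscarinic acetylcholine receptor, at 0.548, 0.628 and 0.550 CPM against 0.797, 1.14 and 1.18 CPM. Its groups did not overlap, but at this low level the log2 fold change of 0.85 (95% interval -0.14 to 1.84) did not pass. Mtr, Heatr1, Lgals8, Nid1, Lyst, Gpr137b and Ero1lb had log2 fold changes of -0.18 to 0.10.

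**Figure D2:**
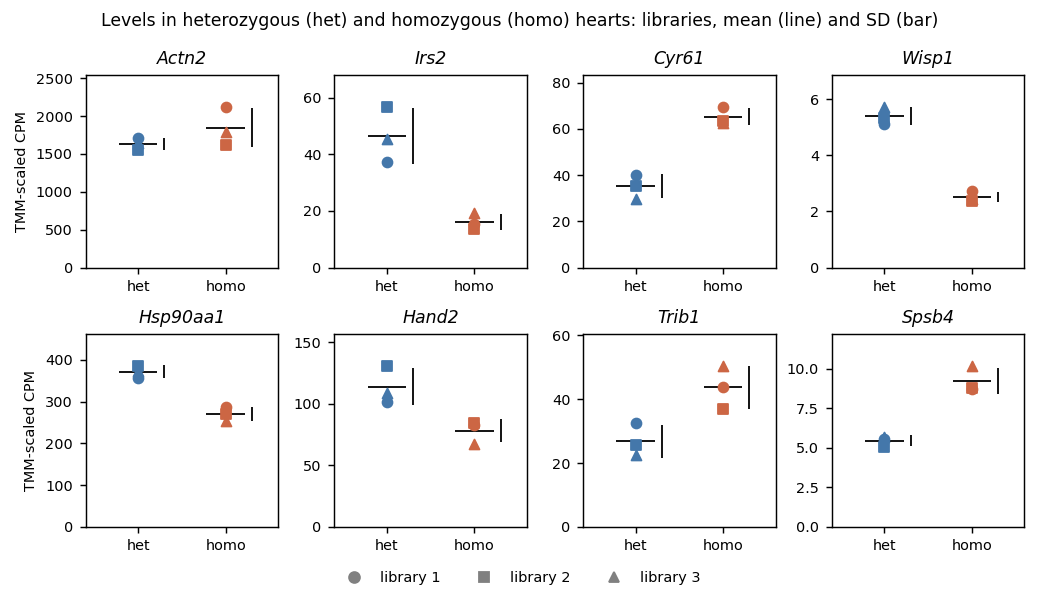
Level of Actn2 and of 7 genes among those with the smallest p (TMM-scaled CPM, vertical axes) in the heterozygous (het) and homozygous (homo) hearts, with a symbol for each library, a line at each group's mean and a bar of 1 SD to either side. The Actn2 groups overlap, whereas the Irs2 values of 37.4 to 56.9 CPM in heterozygous hearts lie above the 13.6 to 19.2 CPM of homozygous hearts and the Cyr61 values lie below theirs.

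Irs2 and Cyr61, the genes nearest to the threshold, and Actn2, the target of the deleted enhancer, are shown by their promoters, to place the genes that the results turn on; the counts are per gene and do not resolve start sites. The sequences are the 150 bases before the RefSeq transcription start, 5′ to 3′ on the gene's strand, from GRCm38.p6. The gene positions in the text came from GENCODE, which places these starts differently. On the minus strand, Irs2 starts there at 11008458, which is not next to its window. Actn2 starts there at 12340760, inside its window. Capitals mark matches on either strand to the motifs searched: the E-box CACGTG, the core of the insulin response element that FoxO factors bind (TGTTTTG), the core bound by TEAD factors (GGAATG) and the half-site of the cyclic AMP response element (TGACGT).
Actn2, chr13:12340733-12340882, minus strand: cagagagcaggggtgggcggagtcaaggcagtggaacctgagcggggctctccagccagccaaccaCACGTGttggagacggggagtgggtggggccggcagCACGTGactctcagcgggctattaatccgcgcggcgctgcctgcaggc
Irs2, chr8:11008930-11009079, minus strand: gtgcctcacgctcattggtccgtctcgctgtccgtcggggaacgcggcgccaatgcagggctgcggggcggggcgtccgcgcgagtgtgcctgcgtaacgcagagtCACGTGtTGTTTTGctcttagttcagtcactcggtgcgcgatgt
Cyr61 (Ccn1 in RefSeq), chr3:145649986-145650135, minus strand: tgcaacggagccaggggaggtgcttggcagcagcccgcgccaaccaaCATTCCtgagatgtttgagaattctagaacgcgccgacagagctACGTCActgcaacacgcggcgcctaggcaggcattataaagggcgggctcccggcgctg

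The Actn2 window held 2 E-boxes. In the Irs2 window an E-box and the insulin response core stood side by side, and the Cyr61 window held 1 TEAD core and 1 cyclic AMP half-site, both on the opposite strand. Over 32851 promoter windows of the same length, CACGTG was found in 4.3%, TGTTTTG in 2.94%, GGAATG in 7.59% and TGACGT in 5.15%. A match describes the letters only and does not show that a factor binds there.

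Irs2 (ENSMUSG00000038894.7, chromosome 8, 10984681 to 11008458, minus strand) carries the signal of the insulin receptor to phosphatidylinositol 3-kinase, and its transcription in liver is known to rise in fasting. It was at 37.4, 56.9 and 45.3 CPM in heterozygous 1 to 3 and at 15.3, 13.6 and 19.2 CPM in homozygous 1 to 3. The groups did not overlap, and the lowest heterozygous value lay well above the highest homozygous value. The means were 46.6 ± 9.78 CPM (SD, n = 3) and 16.0 ± 2.85 CPM (SD, n = 3), 2.91-fold lower in homozygous hearts. The log2 fold change of -1.54 (SE 0.18, 95% interval -1.94 to -1.15) had an unadjusted p of 6.37e-06 and an adjusted p of 0.0824 by edgeR's quasi-likelihood test. Over 20 ways of processing the estimate ran from -1.69 to -1.37 and passed the threshold in 6 (adjusted p 2.35e-12 to 0.462).

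Cyr61 (ENSMUSG00000028195.4, chromosome 3, 145646976 to 145649981, minus strand), also called Ccn1, is a matrix-associated signalling protein and a well-known target of the YAP and TEAD factors. It was at 40.2, 35.3 and 29.9 CPM in heterozygous and at 69.6, 63.6 and 62.6 CPM in homozygous hearts. All 3 homozygous values lay above all 3 heterozygous values. The means were 35.1 ± 5.16 CPM (SD, n = 3) and 65.3 ± 3.79 CPM (SD, n = 3), a 1.86-fold difference. The log2 fold change of 0.90 (SE 0.12, 95% interval 0.64 to 1.15) had an adjusted p of 0.0824 by edgeR's quasi-likelihood test. Over the same 20 ways of processing it ran from 0.79 to 1.0 and passed in 6 (adjusted p 4.98e-07 to 0.848).

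Leaving out heterozygous 1 brought 9 genes past the threshold, with Irs2 and Cyr61 among them. Leaving out any other library left both above it. Irs1, the other main insulin receptor substrate of muscle, was at 72.8, 116 and 111 CPM against 85.6, 113 and 91.1 CPM. Its groups overlapped, and its log2 fold change was -0.05 (SE 0.18). Ctgf, the nearest relative of Cyr61 and also a YAP target, was at 111, 186 and 135 CPM against 128, 270 and 247 CPM. These groups overlapped as well, with a log2 fold change of 0.58 (SE 0.34). Whether Irs2 differed from Irs1, or Cyr61 from Ctgf, in response was not tested. These relatives were named after their values were seen.

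Wisp1 (Ccn4), another member of the Cyr61 family, was at 5.11, 5.33 and 5.74 CPM in heterozygous hearts and at 2.73, 2.36 and 2.45 CPM in homozygous hearts. The groups did not overlap and each was tight, with a log2 fold change of -1.10 (SE 0.21) and an adjusted p of 0.926 by edgeR's quasi-likelihood test. Hsp90aa1, the inducible cytosolic chaperone Hsp90 alpha, was at 356, 385 and 374 CPM against 286, 271 and 254 CPM, a log2 fold change of -0.46 (SE 0.10). Hand2, a transcription factor of heart development, was at 102, 131 and 109 CPM against 82.8, 83.9 and 67.3 CPM, a log2 fold change of -0.54 (SE 0.12). In both genes the homozygous hearts were the lower in value and the groups did not overlap. DESeq2 called Wisp1 and Hsp90aa1, together with Irs2, Fosl2, Sik1 and Syt12 on the lower side and Cyr61 on the higher side, but not Hand2. Syt12, a synaptotagmin, was at 15, 6.15 and 6.84 CPM against 1.87, 2.60 and 3.93 CPM.

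On the side of higher value, Trib1, a pseudokinase that directs proteins to degradation, was at 32.6, 25.7 and 22.5 CPM in heterozygous and at 43.9, 37.0 and 50.4 CPM in homozygous hearts, a log2 fold change of 0.70 (SE 0.16). Spsb4 was at 5.57, 5.05 and 5.71 CPM against 8.70, 8.75 and 10.2 CPM, with a log2 fold change of 0.76 (SE 0.17). Neither gene's groups overlapped, and neither passed. Rxra, the nuclear receptor that pairs with the PPARs and other receptors, had very even values of 76.4, 73.4 and 80.6 CPM against 99.1, 97.0 and 97.5 CPM, a log2 fold change of 0.35 (SE 0.09). Others among the smallest p on this side were Rnf122, Amica1, Adamts7, Ppp1r3d, Cyp4b1, Ppfibp2, Kcnj8, Cand2, Ushbp1, Adamtsl4 and Lrrc20, with log2 fold changes of 0.36 to 0.93. On the side of lower value they were Tbc1d1, Trp53inp1, Ms4a6c, Dbn1, Adamts9, Zfp655, Tinagl1, Slc3a2 and Rlim, with -0.78 to -0.35. All of them had an adjusted p of 0.926 and groups that did not overlap. Groups that did not overlap were found for 1652 of the genes tested (11.4%), 881 higher (6.08%) and 771 lower (5.32%).

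The 2 wild-type hearts give these levels a reference, on a scale set over all 8 libraries and with no test. Irs2 was at 8.83 and 10.6 CPM in wild type, below every homozygous heart, and Wisp1 was at 1.23 and 0.832 CPM, also below. Hsp90aa1 was at 182 and 175 CPM, again below all 6 deletion hearts. Cyr61 was at 76.0 and 82.3 CPM, above all 6. In these 4 genes the homozygous hearts lay between the heterozygous and the wild-type hearts. The other 8 genes looked up in wild type did not show this order in every heart. Ppfibp2, at 28.8 and 23.7 CPM, lay below all heterozygous hearts while the homozygous hearts lay above them. Spsb4, at 7.90 and 6.10 CPM, lay between both groups, and Trib1, at 37.1 and 26.9 CPM, overlapped both. Rnf122 (20.9 and 9.22 CPM) and Adamts7 (56.9 and 28.9 CPM) differed widely between the wild-type hearts, LOC102636514 was at 53.3 and 57.6 CPM, and Trp53inp1 was at 52.1 and 36.4 CPM. By group mean, Rnf122 and Trp53inp1 did follow the order. Single hearts broke it: wild type 2 lay below all homozygous hearts for Rnf122, and wild type 1 lay above homozygous 1 (47.9 CPM) for Trp53inp1. Actn2 was at 2187 and 2703 CPM in wild type, above all 6 deletion hearts. The group means of Actn2 followed the order too, although its heterozygous and homozygous hearts overlapped. Hand2 was at 120 and 180 CPM, within or above the heterozygous range.

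Gene groups of the contractile apparatus gave no call. Of 49 Z-disc and costamere genes, 2 were higher and 1 lower in value at an unadjusted p under 0.05 (6.12%, against 5.11% over all genes). Their median log2 fold change was -0.01. Xirp1, an actin-binding repeat protein of the intercalated disc, was at 188, 197 and 214 CPM against 251, 217 and 268 CPM, a log2 fold change of 0.30 (SE 0.11) with groups that did not overlap. Sgca, the alpha subunit of the sarcoglycan complex, was at 84.9, 89.2 and 99.4 CPM against 116, 94.8 and 112 CPM (0.24, SE 0.11), and Pdlim3, a PDZ and LIM protein that binds alpha-actinin, at 18.7, 17.4 and 21.9 CPM against 9.96, 18.2 and 13.0 CPM (-0.49, SE 0.21). Both overlapped through homozygous 2. Without homozygous 1, or without homozygous 3, 0 of the 49 had such a p, and without heterozygous 3 there were 4 higher and 3 lower. Here and in the lists below, the share of all genes at such a p also moved between fits. It was 6.86%, 5.01% and 5.47% without heterozygous 1, 2 and 3. Without homozygous 1, 2 and 3 it was 3.35%, 5.35% and 3.36%. It was 6.37% with a term for Xist, 4.93% with an offset for length and GC, and 2.73% with all 8 libraries. Of 21 thin filament genes, 1 was higher and 1 lower (9.52%, against 5.11% over all genes), with a median of 0.04. Lmod2, the leiomodin that lengthens cardiac thin filaments, was at 667, 805 and 648 CPM against 1070, 816 and 1093 CPM. Its groups were separated by a narrow gap between heterozygous 2 and homozygous 2, and the log2 fold change was 0.49 (SE 0.14). Neb, the giant thin filament ruler of skeletal muscle, was at 25.2, 11.6 and 13.5 CPM against 7.81, 10.7 and 10.2 CPM (-0.80, SE 0.29), heterozygous 1 being the highest.

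Of 19 thick filament and M-band genes, 3 were higher (15.8%) and 0 lower at an unadjusted p under 0.05, and 16 had a log2 fold change above 0, with a median of 0.10. Over all genes 2.65% were higher at that p and 2.46% lower. Obsl1, a cytoskeletal adaptor of the sarcomere, was at 126, 156 and 165 CPM against 170, 189 and 193 CPM, a log2 fold change of 0.30 (SE 0.11). Mybpc3, cardiac myosin-binding protein C, was at 3121, 3109 and 3196 CPM in heterozygous hearts and at 4357, 3175 and 3951 CPM in homozygous hearts. The groups overlapped through homozygous 2, and the log2 fold change was 0.28 (SE 0.12). Without homozygous 3, 0 of the 19 had such a p. There was 1 without heterozygous 1, without heterozygous 3, or with all 8 libraries in 1 fit. Of the main motor proteins, the log2 fold change was 0.04 for Myh6, the adult ventricular myosin heavy chain, and -0.28 for Myh7, the fetal one. Tnnt2, Tnni3, Ttn, Actc1 and Myl2 lay between -0.15 and 0.16.

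Calcium handling genes (39 tested) held 4 members of higher value (10.3%, against 2.65% over all genes) and 0 of lower value at that p, with a median of 0.02. Without homozygous 1, or without homozygous 3, there were 2, and with all 8 libraries in 1 fit there was 1. Casq1, the calsequestrin of skeletal muscle, was at 12.1, 10.4 and 11.2 CPM against 12.7, 20.1 and 30.1 CPM, with the homozygous hearts widely spread (log2 fold change 0.90, SE 0.28). Camk2g, a calmodulin-dependent kinase, was at 56.7, 63.0 and 63.1 CPM against 69.4, 81.1 and 82.4 CPM (0.35, SE 0.10). The genes that carry the bulk of calcium cycling, Atp2a2, Pln and Slc8a1, had log2 fold changes of 0.11, -0.14 and -0.01. Among 34 ion channel genes 3 were higher (8.82%, against 2.65% over all genes) and 0 lower, with a median of 0.09. There were 7 higher without heterozygous 3, and 2 without heterozygous 1, homozygous 1 or homozygous 3. There were 2 with an offset for length and GC, and 5 higher and 1 lower with a term for Xist. Cacna1h, a T-type calcium channel of the fetal heart, was at 5.25, 2.17 and 1.44 CPM against 6.40, 7.84 and 8.87 CPM, a log2 fold change of 1.41 (SE 0.42). All homozygous values lay above all heterozygous ones, and this gene passed when heterozygous 1 was left out. Kcnj8, the pore of the vascular KATP channel, was at 33.6, 35.7 and 30.8 CPM against 47.4, 40.8 and 45.3 CPM (0.42, SE 0.11).

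Of 19 intercalated disc genes, which join neighbouring cardiomyocytes, 3 were higher (15.8%, against 2.65% over all genes) and 0 lower, 16 had a log2 fold change above 0, and the median was 0.12. Without homozygous 3 there was 1, and with all 8 libraries in 1 fit there were 2. Gja1, the main ventricular gap junction protein connexin 43, was at 176, 240 and 200 CPM against 297, 272 and 239 CPM. The lowest homozygous value lay just under the highest heterozygous one, and the log2 fold change was 0.39 (SE 0.13). Among 34 cardiac transcription factors 2 were higher and 1 lower (8.82%, against 5.11% over all genes), with a median of 0.04. Without heterozygous 1 there were 4 higher and 4 lower, and the median was -0.03. Gata4 was at 81.8, 89.4 and 93.7 CPM against 117, 108 and 103 CPM (0.31, SE 0.09), while Hand2, its partner in the embryonic heart, pointed the other way.

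No gene of energy metabolism passed. None of 80 oxidative phosphorylation genes had an interval that reached 2-fold in either direction. At an unadjusted p under 0.05, 1 was higher and 0 lower (1.25%, against 5.11% over all genes), and the median log2 fold change was 0.00. There were 9 higher without heterozygous 1 (median 0.09), 4 higher without homozygous 2 or with the offset for length and GC, 0 higher and 2 lower without heterozygous 2, and 0 either way without each of the other 3 libraries. Of 30 genes of the TCA cycle and pyruvate oxidation, 6 were higher and 0 lower (20%, against 5.11% over all genes), 24 had a log2 fold change above 0, and the median was 0.07. Cs, citrate synthase, was at 1117, 1215 and 1344 CPM against 1683, 1370 and 1469 CPM. Its groups were apart by a narrow gap, and the log2 fold change was 0.30 (SE 0.12). Pdpr, the regulatory subunit of pyruvate dehydrogenase phosphatase, was at 74.8, 79.2 and 72.6 CPM against 90.8, 84.5 and 96.9 CPM (0.26, SE 0.09). The count of 6 became 1 higher and 1 lower without heterozygous 2, 1 without homozygous 1 or homozygous 3, 3 without heterozygous 1, and 10 without homozygous 2. It was 4 with a term for Xist. With all 8 libraries in 1 fit it was 0 (median 0.075), and in that fit 2.73% of all genes had such a p.

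Fatty acid metabolism (46 genes) had 5 higher (10.9%, against 2.65% over all genes) and 0 lower, with a median of 0.14. Without homozygous 1, or without homozygous 3, it had 0, without heterozygous 2 it had 1, without heterozygous 1 it had 9 and without homozygous 2 it had 12. In the same order, the share of all genes at an unadjusted p under 0.05 was 3.35%, 3.36%, 5.01%, 6.86% and 5.35%. With a term for Xist it had 1 higher and 2 lower, and the median was 0.01. With all 8 libraries in 1 fit it had 0 either way (median 0.14). Acadl, a long-chain acyl-CoA dehydrogenase, was at 1007, 936 and 1012 CPM against 1267, 1033 and 1252 CPM (0.27, SE 0.11). Cpt1b, which admits long-chain fatty acids to the mitochondrion, was at 3.01, 4.49 and 4.68 CPM against 6.80, 5.15 and 6.36 CPM (0.58, SE 0.23). Of 27 glycolysis and glycogen genes, 2 were higher and 1 lower (11.1%, against 5.11% over all genes), with a median of 0.09. Without homozygous 1, or with all 8 libraries in 1 fit, there were 0, and without heterozygous 2 there were 4 higher and 1 lower. Pygm, muscle glycogen phosphorylase, was at 761, 862 and 904 CPM against 1101, 989 and 935 CPM (0.26, SE 0.11).

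**Figure D3:**
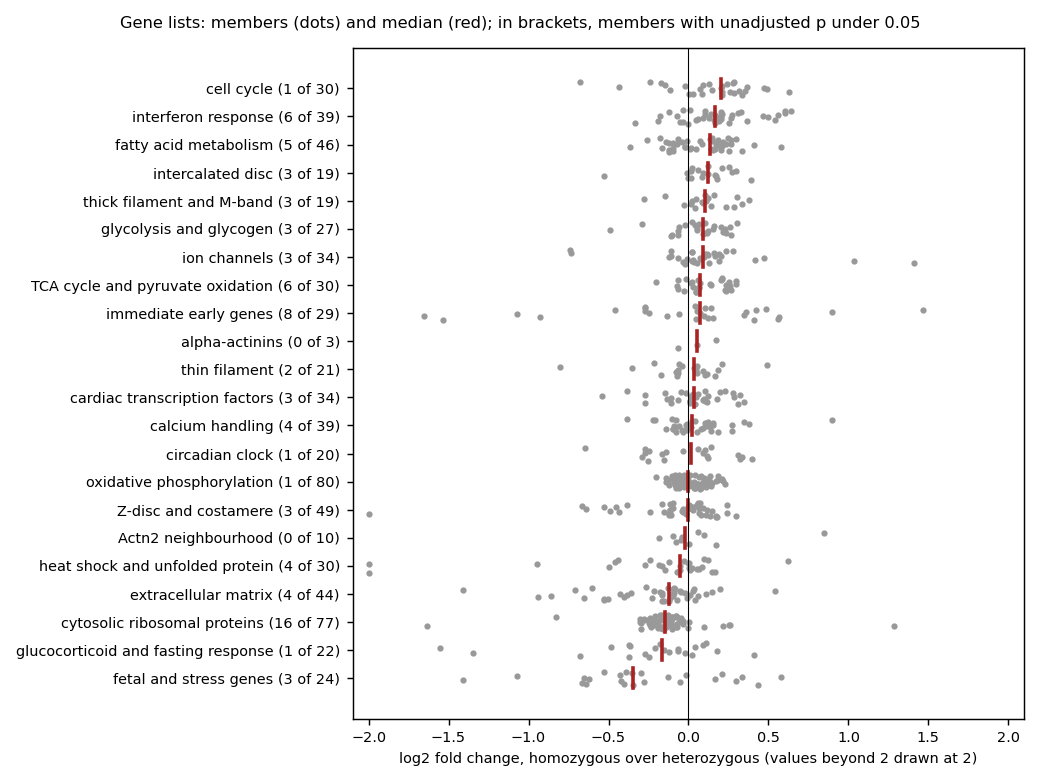
Log2 fold change (homozygous over heterozygous, horizontal axis) of the tested members of each gene list, a dot for each gene and a red mark at the list's median, with members at an unadjusted p under 0.05 counted in brackets. The medians of the lists drawn, which leave out cell type markers and sex-linked genes, run from -0.35 for the fetal and stress genes to 0.21 for the cell cycle genes (-0.23 without homozygous 1), and the cytosolic ribosomal proteins lie mostly to the left of 0 (median -0.15).

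The cytosolic ribosomal proteins, the structural parts of the cytoplasmic ribosome, leaned to lower values in the homozygous hearts. In each library the list's median deviation from the gene means of log2 CPM was also taken. It was 0.144, -0.026 and 0.13 in heterozygous 1 to 3 and -0.154, -0.055 and -0.02 in homozygous 1 to 3. At that level the groups overlapped, with heterozygous 2 below homozygous 3. Of 77 tested, 71 had a log2 fold change below 0 and 6 above, the median was -0.15, and 16 were lower and 0 higher at an unadjusted p under 0.05 (20.8%, against 2.46% lower over all genes). None passed. Rpl6 was at 326, 316 and 316 CPM in heterozygous and 265, 252 and 260 CPM in homozygous hearts, Rpl10a at 254, 231 and 223 CPM against 187, 189 and 199 CPM, and Rpsa at 610, 547 and 573 CPM against 464, 480 and 481 CPM. All 3 had groups that did not overlap, and their log2 fold changes were -0.30, -0.30 and -0.28. Ribosomal protein genes have many near-identical processed copies, and how the authors' counting treated reads that map to several places was not given in the sources used here, so single members are uncertain. The median stayed below 0 (-0.20 to -0.10) whichever library was left out, while the 16 became 3 lower without heterozygous 3, 4 without homozygous 1, 6 without homozygous 2, 9 without homozygous 3, and 7 lower with 2 higher without heterozygous 1. It was 1 when all 8 libraries were fitted together and 8 with an offset for gene length and GC content.

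Immediate early genes, which are transcribed within minutes of a stimulus, were the list with the largest share of members at an unadjusted p under 0.05 among those with at least 10 tested (8 of 29, 27.6%, against 5.11% over all genes), and they pointed both ways: 5 were higher and 3 lower, with a median of 0.07. They were 4 higher and 1 lower without heterozygous 3, 5 and 1 without heterozygous 2, 6 and 5 without homozygous 1, and 8 and 2 without homozygous 3. Cyr61 is itself on this list. On the lower side, Fosl2, a Fos-related subunit of AP-1, was at 62.7, 117 and 108 CPM in heterozygous and 47.0, 58.1 and 46 CPM in homozygous hearts. Nr4a1, an orphan nuclear receptor, was at 106, 152 and 107 CPM against 73.6, 33.5 and 19.0 CPM. In both genes every homozygous heart lay below every heterozygous heart, with log2 fold changes of -0.93 (SE 0.23) and -1.53 (SE 0.56). Atf3, a stress-induced repressor, was at 9.0, 25 and 22.5 CPM against 10.5, 8.58 and 7.87 CPM. Its groups overlapped because heterozygous 1 was as low as the homozygous hearts.

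On the higher side, Dusp1, a phosphatase that switches off MAP kinases, was at 98.7, 98.5 and 85.8 CPM against 116, 148 and 115 CPM, a log2 fold change of 0.42 (SE 0.12). Ier5 was at 38.7, 44.7 and 42.8 CPM against 45.8, 70.4 and 60.2 CPM (0.48, SE 0.15), and Zfp36, an RNA-binding protein that speeds decay of inflammatory transcripts, at 57.2, 57.0 and 53.2 CPM against 58.1, 85.3 and 69.4 CPM (0.35, SE 0.13). Their groups did not overlap, although Zfp36 in homozygous 1 was within 1 CPM of heterozygous 1. Egr1 was at 12.6, 6.12 and 9.25 CPM against 50.4, 17.0 and 9.64 CPM, a spread within the homozygous group that left it far from the threshold. Sik1, a salt-inducible kinase outside the list and named after its values were seen, was at 78.6, 158 and 139 CPM against 50, 72.0 and 55.0 CPM (-1.09, SE 0.28).

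**Figure D4:**
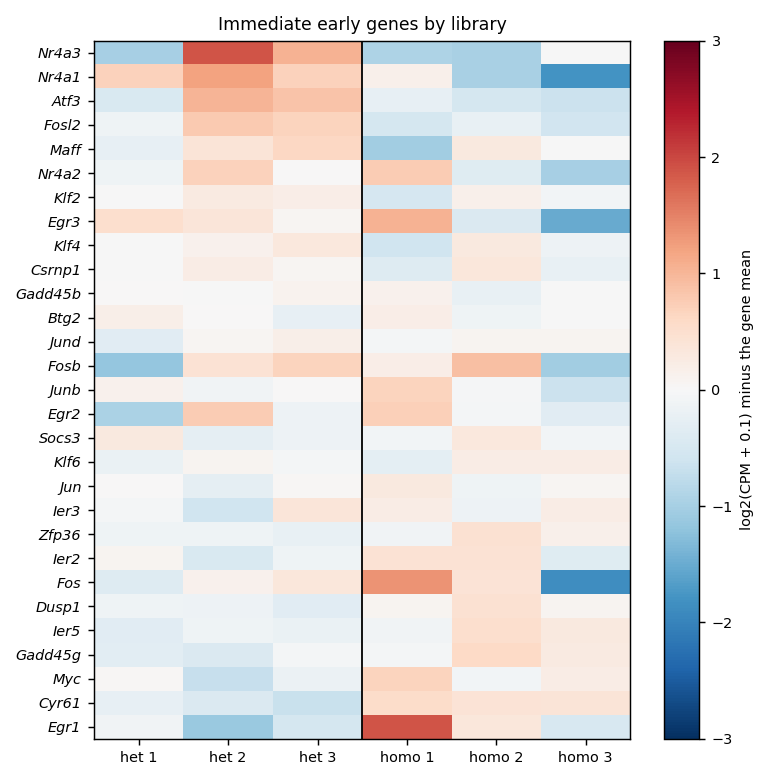
Level of the 29 immediate early genes (vertical axis) in each library (horizontal axis; het, heterozygous; homo, homozygous) as colour, red above and blue below the gene's mean of log2(CPM + 0.1) over the 6 libraries. Atf3 and Fosl2 are red in heterozygous 2 and 3 and blue in the homozygous libraries, heterozygous 1 is at the homozygous level for Atf3 (9.0 CPM), and Egr1 is highest in homozygous 1 (50.4 CPM).

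The heat shock and unfolded protein list (30 genes) had 1 higher and 3 lower (13.3%, against 5.11% over all genes), with a median of -0.05. It had 3 higher and 7 lower without heterozygous 1, 1 higher and 1 lower without heterozygous 2, 0 higher and 1 lower without heterozygous 3 or homozygous 3, and 1 higher and 5 lower without homozygous 1. Hspa8, the constitutive Hsp70 chaperone, was at 1189, 1292 and 1278 CPM against 1089, 1059 and 964 CPM, with groups that did not overlap and a log2 fold change of -0.27 (SE 0.10). The inducible chaperone genes Hspa1a and Hspa1b split the heterozygous hearts. Hspa1b was at 2.28, 32.9 and 24.4 CPM against 5.36, 3.11 and 2.04 CPM, and Hspa1a at 3.52, 27.5 and 19.3 CPM against 8.27, 2.64 and 1.83 CPM. Heterozygous 2 and 3 stood high and heterozygous 1 lay with the homozygous hearts, and neither gene passed. Both are near-identical in sequence, so reads may be shared between them.

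Genes of the interferon response, the antiviral and antigen-presentation programme, had 6 higher and 0 lower of 39 (15.4%, against 2.65% higher over all genes), 30 had a log2 fold change above 0, and the median was 0.17. H2-K1, a class I histocompatibility heavy chain, was at 81.3, 60.4 and 87.6 CPM against 108, 141 and 99.3 CPM, and H2-Ab1, a class II chain, at 18.1, 14.7 and 23.2 CPM against 26.4, 30.3 and 25.9 CPM. Psmb9, an immunoproteasome subunit, was at 4.70, 4.39 and 4.37 CPM against 6.10, 8.28 and 6.0 CPM. In all 3 the homozygous values lay above the heterozygous values, by log2 fold changes of 0.60, 0.56 and 0.60. All 3 lie on chromosome 17, between 33996017 and 34269419. H2-K2 and Rps18, described below as low in heterozygous 2 alone, lie nearby, from 33951999 to 33978827. Heterozygous 2 was also the lowest library for H2-K1 and H2-Ab1, but not for Psmb9. Whether these neighbours vary together was not tested. The interferon list had 2 members of higher value at an unadjusted p under 0.05 without homozygous 2 (median 0.06), 9 without homozygous 3, 4 without homozygous 1, 4 higher and 1 lower without heterozygous 2, and 0 in a fit of all 8 libraries.

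Fetal and stress genes, the programme a loaded heart switches back on, had the lowest median of the function lists at -0.35 over 24 genes, but this rested on 1 heart. Without heterozygous 1 the median was 0.07. Acta1, skeletal alpha-actin, was at 1090, 198 and 110 CPM in heterozygous and 307, 424 and 364 CPM in homozygous hearts. Nppa, atrial natriuretic peptide, was at 418, 313 and 93.6 CPM against 103, 181 and 363 CPM. Heterozygous 1 was the highest library for both, and the homozygous hearts lay within the range of the other two or above it. Heterozygous 1 was also the highest for the metal-binding Mt2 (259 CPM, against 35.8 to 76.7 CPM elsewhere), the lipocalin Lcn2 (17.9 CPM, against 2.22 to 3.16 CPM) and the protease inhibitor Timp1 (12 CPM, against 1.57 to 2.67 CPM). Hmox1, heme oxygenase, was lower in value in every homozygous heart, at 12.2, 11.6 and 8.52 CPM against 19.8, 16.6 and 13.4 CPM (-0.62, SE 0.19).

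Extracellular matrix genes (44) had 0 higher and 4 lower (9.09%, against 2.46% lower over all genes), 35 had a log2 fold change below 0, and the median was -0.12. Loxl2, a collagen crosslinking enzyme, was at 49.1, 51.4 and 35.4 CPM against 30.9, 35.2 and 28.2 CPM (-0.53, SE 0.15), and Tnc, tenascin C, at 6.12, 4.77 and 3.03 CPM against 2.33, 2.73 and 2.57 CPM (-0.86, SE 0.29). Neither gene's groups overlapped. The median of this list was -0.00 without heterozygous 1 and 0.01 without homozygous 3. The count of lower members was 2 without homozygous 3 or heterozygous 2, 2 with 1 higher without heterozygous 1, and 6 without heterozygous 3 or homozygous 2. It was 2 with all 8 libraries in 1 fit. Clock genes (20) had a median of 0.01. Glucocorticoid and fasting genes (22) had 0 higher and 1 lower (4.55%, against 5.11% over all genes) with a median of -0.17. Cell cycle genes (30) had 0 higher and 1 lower (3.33%), Cdkn1a (-0.68, SE 0.22), with a median of 0.21. The cell cycle median was -0.23 without homozygous 1 and 0.01 without heterozygous 1. The fasting median was -0.03 without heterozygous 1, and 5 of its members were lower without heterozygous 3, 3 without homozygous 2 and 0 without homozygous 1 or homozygous 3.

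Marker lists of cardiac cell types were summed by library. The 12 ventricular cardiomyocyte markers summed to 88392 to 95872 CPM in heterozygous and 88667 to 97671 CPM in homozygous hearts. The 7 atrial markers tested, of 9 listed, summed to 815 to 1193 CPM against 855 to 1154 CPM. They ranged widely, from Myl7 at 0.177 to 0.688 CPM to Nppa at 93.6 to 418 CPM. Sln and Bmp10 were not tested, with 6 and 0 counts over the 6 libraries. The ventricular markers fit the tissue label heart, which names no chamber. In bulk tissue, fewer cells of a type and less RNA per cell cannot be told apart. The 12 fibroblast markers summed to 3075 to 3756 CPM against 2548 to 3386 CPM, 11 of the 12 had a log2 fold change below 0, and the median was -0.16. It was -0.04 without heterozygous 1 or homozygous 3. These fibroblast values lie in the same direction as the matrix genes, and their part in that result was not tested. The 12 macrophage markers summed to 549 to 814 CPM against 560 to 581 CPM, with 10 of the 12 below 0 and a median of -0.11, which was 0.06 without heterozygous 1. Mrc1, the mannose receptor, was at 128, 87.6 and 68.1 CPM against 68.3, 67.5 and 66.6 CPM, heterozygous 1 being the highest. Lymphocyte markers, of which 6 of 11 were tested, summed to 11.7 to 19.1 CPM against 16.8 to 17.9 CPM, with 5 of the 6 above 0 and a median of 0.27, which was 0.11 without heterozygous 1 and 0.08 without homozygous 2. Their part in the interferon values was not tested. The endothelial sum was 2115 to 2777 CPM against 2146 to 2513 CPM. The smooth muscle and pericyte sum was 3587 to 4361 CPM against 3845 to 4060 CPM. Of 10 adipocyte markers 2 were tested, and the alpha and beta globin genes on the erythroid list were at 0 in the table.

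Some genes stood at either of 2 levels with nothing between, and in none of them were the low libraries exactly those of 1 genotype. Of 13049 genes with a mean of at least 1 CPM, 23 had a gap of at least 4-fold between a low and a high set of libraries, each set spanning less than 2-fold. Of these, 5 lie on the X or Y chromosome and 18 elsewhere. Olfr1033 on chromosome 2, an olfactory receptor gene, was at 20.6, 33.9 and 0.241 CPM in heterozygous and 17.8, 0.140 and 17.2 CPM in homozygous hearts, low in heterozygous 3 and homozygous 2. On chromosome 17, Zfp97 was at 3.20, 0.220 and 0.172 CPM against 6.22, 4.54 and 5.38 CPM, and Rps2, a ribosomal protein with many near-identical copies, at 409, 17.6 and 31.8 CPM against 360, 374 and 381 CPM. Both were low in heterozygous 2 and 3.

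On the same chromosome Rps18 (154, 16.3 and 147 CPM against 115, 136 and 127 CPM) and H2-K2 (2.37, 0.251 and 3.13 CPM against 3.92, 3.55 and 4.26 CPM) were low in heterozygous 2 alone. Mndal on chromosome 1 was at 12.7, 11.2 and 14.2 CPM against 13.4, 2.20 and 2.19 CPM, low in homozygous 2 and 3, as was Hsd17b7 on the same chromosome. Of the genes at 2 levels, Zfp97 and Rps2 passed without heterozygous 1, and Mndal passed without homozygous 1. With all 6 libraries none of these 3 passed.

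**Figure D5:**
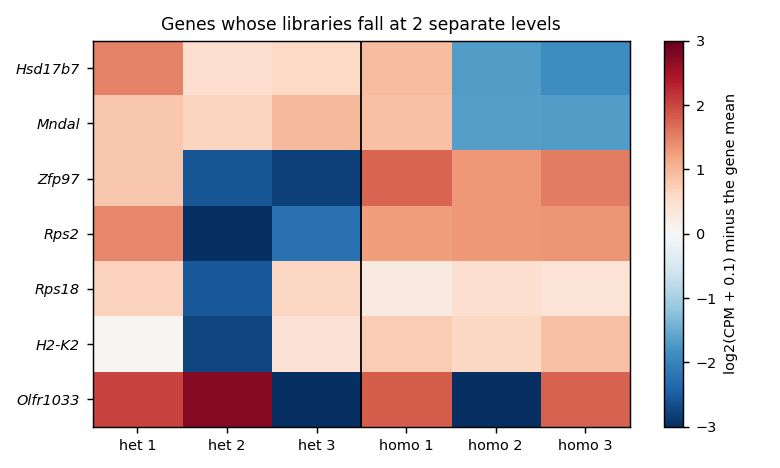
The 7 genes named here that stand at a low or a high level (vertical axis), with colour giving log2(CPM + 0.1) minus the gene's mean in each library (horizontal axis; het, heterozygous; homo, homozygous), drawn up to 3 in size. The low libraries differ from gene to gene, such as heterozygous 3 and homozygous 2 for Olfr1033 (0.241 and 0.140 CPM) and heterozygous 2 and 3 for Rps2 (17.6 and 31.8 CPM).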

How the data were processed

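Hearts at postnatal day 40 gave 1 bulk RNA library each. The authors deposited raw counts, 1 value per gene symbol and library, not normalized. The tools named in the submitters' processing notes are featureCounts (Subread), HISAT2, Trimmomatic 0.36 and DESeq2, with mm10 as the build. Which annotation and strand setting were used, and how reads that map to several places were treated, was not given in the sources used here.

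The 3 homozygous and 3 heterozygous columns were analysed alone in R 4.3.3. The filterByExpr function of edgeR 4.0.16 removed low genes, and the rest were scaled by TMM and tested by the robust quasi-likelihood F test (two-sided), with Benjamini-Hochberg adjustment over all 14487 genes and a threshold of 0.05. The fit was also run on simulated data, with results that are not reported here. Levels are TMM-scaled CPM with the SD between libraries. Alternatives used DESeq2 1.42.0, limma 3.58.1, other scalings and filters, a replicate block, a term for Xist, thinned counts, an offset for length and GC content, all 8 libraries, and leaving out each library. P-values measure spread between samples, since the labels say no more of the animals than that they share a litter.

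Gene lists (37, some sharing members) and the rule for named genes were chosen with earlier results of these data known. The rule names Actn2, its neighbours and relatives, the 15 smallest p in each direction (mean of at least 1 CPM, regular symbol), up to 4 members of each list and a fixed panel of cardiac genes. Irs1, Ctgf, Sik1, Mt2, Lcn2, Timp1, Hspa1a, Hspa1b, Egr1, Nr4a1, Zfp36 and the genes at 2 levels were chosen after their values were seen. Positions came from GENCODE vM21, in which 98.4% of symbols were found, 370 of them through RefSeq synonyms. Promoters came from RefSeq. Some named results are not reported here.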

Additional observations from a re-analysis of the deposited data

How the results depend on the processing

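Actn2 had a log2 fold change of 0.06 to 0.26 and was not called under any of the 19 alternatives run, and none of the 13 genes followed through the alternatives changed direction. The number of genes past the threshold, 0 in the analysis reported, was 2 with no filter on low counts (Cyr61 and Irs2), 7 by DESeq2, 3 with a term for Xist (Cyr61, Socs2 and Bcl6), 1 after thinning (Irs2), 2 with the offset for length and GC (Cyr61 and Irs2), and 0 to 9 when a library was left out (9 without heterozygous 1, 2 without homozygous 1, 1 without homozygous 2). It was 0 with DESeq2 size factors, total counts, a filter of 1 CPM in 3 libraries, all 8 libraries, limma-voom and an edgeR fit without the robust option. The cause of these moves was not tested. The replicate block gave 0 calls (smallest adjusted p 0.0746), and the replicate block with the offset for length and GC, chosen after seeing the data, gave 3 (Cyr61, Irs2 and Sik1). The numbers pair nothing that the labels name: deviations from the group means correlated by 0.187, 0.158 and -0.0204 for numbers 1, 2 and 3, and heterozygous 3 correlated best with homozygous 2 (0.142). The median of the Actn2 neighbourhood was -0.06 to 0.06 when a library was left out. List medians under the offset were also chosen after seeing the data. For nearly all genes under 1 CPM a 2-fold difference was not excluded.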
